A study of Drosophila melanogaster with 4 samples.

Results

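The gene vvl (ventral veins lacking) lies on chromosome arm 3L of Drosophila melanogaster, and the 210 kb interval around it, 3L:6750000-6960000 in FlyBase release 5 coordinates, carried one of the long groups of Psc-bound regions in late embryos. Every enriched region, called a cluster below, that overlapped this interval was taken. There were 71 such clusters among 13747 in the 3 deposited lists: 11 of 2628 in the list of ChIP replicate 1, 15 of 2432 in that of ChIP replicate 2 and 45 of 8687 in the list combined from the replicate set. The interval had been picked because the combined clusters there form a long group, so its cluster numbers, spacing and coverage are a description and were not tested.

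The vvl gene encodes a transcription factor with a POU-specific domain and a homeodomain, also known as drifter. In the fly embryo it is needed in the cells of the trachea and the midline glia, and later for the wing veins that gave it its name. Psc is a RING finger protein of Polycomb repressive complex 1. This complex compacts chromatin and keeps developmental regulator genes silent in cells where they should be off. At its target genes in the fly the complex is recruited at short DNA elements called Polycomb response elements.

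Psc was mapped by chromatin immunoprecipitation and sequencing (ChIP-seq) of formaldehyde-fixed whole embryos. All 4 samples were wild-type embryos of the Oregon-R-modENCODE strain at 14 to 16 h of development: 2 immunoprecipitated with an antibody to Psc and 2 inputs, with each input paired by number to its ChIP sample. The labels do not say that the replicates were separate embryo collections, so the spread between them may be technical. Whole embryos mix many cell types, so Psc binding in fewer cells and less binding per cell cannot be told apart. No mutant or other stage was part of the design. Values of the inputs themselves were not analysed here.

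Each cluster carries a score given by the authors, read here as higher for stronger enrichment. The unit of the score is not given. The scale of the scores in the replicate lists is not settled, so scores are compared here only within a list, by their order and by the percentile, the share of all clusters of that list with a lower score. A cluster above the 90th percentile is called strong below. The number of reads under a cluster was not analysed here, so depth is unknown and no error can be given for a single cluster.

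A pair of sites stood far above all other clusters at vvl in every list, one near the start of the interval and one beyond its middle. The distance from the end of the first to the start of the second was 108 kb in replicate 1 and in the combined list and 109 kb in replicate 2. The first strong site was 3L:6780434-6787039 in the combined list, 6606 bp wide. Its score was 1.99 in replicate 1, where it ranked 19 of 2628 clusters, and 1.48 in replicate 2, where it ranked 112 of 2432. In the combined list its score of 1.56 ranked 85 of 8687. These ranks are percentiles of 99.3, 95.4 and 99.0. Both replicate lists held it as 1 unbroken cluster, 3L:6781733-6786965 in replicate 1 and 3L:6780545-6786646 in replicate 2. The starts were 1188 bp apart and the ends 319 bp apart, and 4914 bp lay in both.

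The second strong site was 3L:6895355-6902165 in the combined list, 6811 bp wide and the widest combined cluster of the interval. Replicate 1 held it as 1 cluster, 3L:6895439-6901166, with a score of 1.58, rank 71 and percentile 97.3. Replicate 2 split it into 2 clusters, 355 bp apart. The left piece, 3L:6895923-6898556, had a score of 2.31, which was rank 10 of the whole replicate 2 list and percentile 99.6. The right piece, 3L:6898912-6901122, had a score of 0.72 and percentile 79.4. Replicate 2 thus gave the pieces of this site unequal scores, while replicate 1 gave it a single one. In the combined list the site was 1 cluster with a score of 1.47 and percentile 98.8.

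The order of the sites differed between the replicates. The first site scored above the second in replicate 1 and in the combined list, and below the left piece of the second in replicate 2. With 2 replicates in opposite order, neither site can be called the stronger. The limits of the second site lay close together in the replicates, with ends 44 bp apart and starts 484 bp apart.

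**Figure D1:**
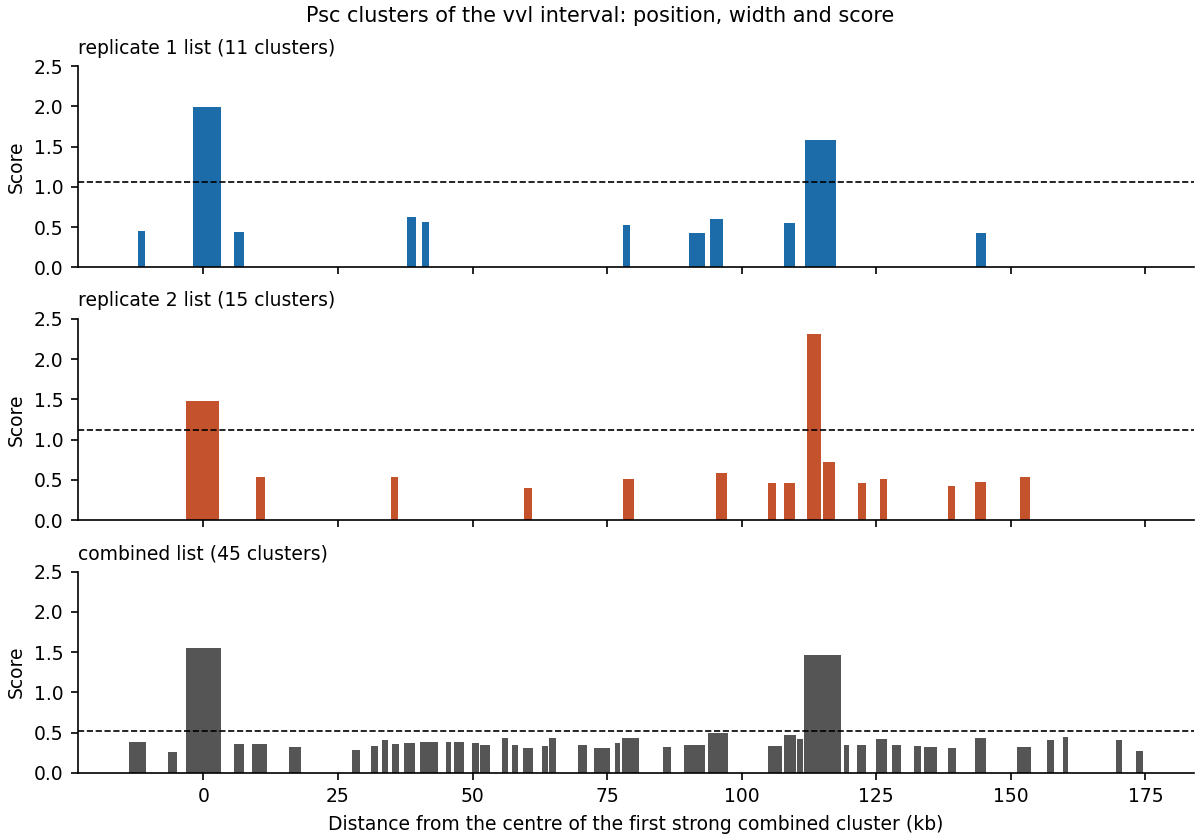
Clusters of the vvl interval in the 3 lists. Each bar is 1 cluster, with its width to scale on the x axis (distance in kb from the centre of the first strong combined cluster) and the authors' score as its height; the dashed line is the 90th percentile of that whole list, and heights compare only within a panel. In all 3 panels the bars above the line are near 0 kb and near 115 kb.

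These 2 sites were the only strong clusters of the interval in each list: 2 of 11 in replicate 1, 2 of 15 in replicate 2 and, for the combined list, 2 of 45. Over whole lists the share is 10.0%, 10.0% and 9.99% by the definition of the percentile, so the members' counts are read as a description. Nothing lay close to the limit in the replicates. The limit was a score of 1.06 in replicate 1, where the nearest members had 0.63 and 1.58. It was 1.12 in replicate 2, with nearest members at 0.72 and 1.48. In the combined list the limit was 0.52, with nearest members at 0.49 and 1.47.

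Together the strong sites took up 39.3% of the bases covered in the interval by replicate 1, 35.6% of those by replicate 2 and 14.4% of those by the combined list. The first site was wider than 93.3% of replicate 1, 96.2% of replicate 2 and 97.5% of combined clusters. For the second the shares were 94.6% and 97.7% in replicate 1 and the combined list. Its wider piece in replicate 2 exceeded 79.4% of that list.

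All other clusters lay below the 90th percentile of their list. Over all members the median percentile was 44.5 for replicate 1, 47.4 for replicate 2 and 39.2 for the combined list, against 50.0 for a whole list by construction. The mean of the replicate medians was 46.0 ± 2.0 (SD, n = 2). Ranked only among the clusters of arm 3L, that mean was 54.1 ± 1.7 (SD, n = 2). The members thus lay below or above the middle depending on the clusters they were ranked with. Among the 43 combined clusters that were not strong, scores ran from 0.26 to 0.49 with a median of 0.35, and the median of the whole combined list was 0.37. Of the 43, 16 (37.2%, Clopper-Pearson 95% interval 23.0 to 53.3) scored above that list median, against 44.4% of all combined clusters that were not strong. The Clopper-Pearson interval treats clusters as independent, which neighbours at 1 locus need not be. These shares are therefore a description and no test. The third-highest combined cluster, 3L:6877468-6881127, had a score of 0.49 and percentile 88.0.

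**Figure D2:**
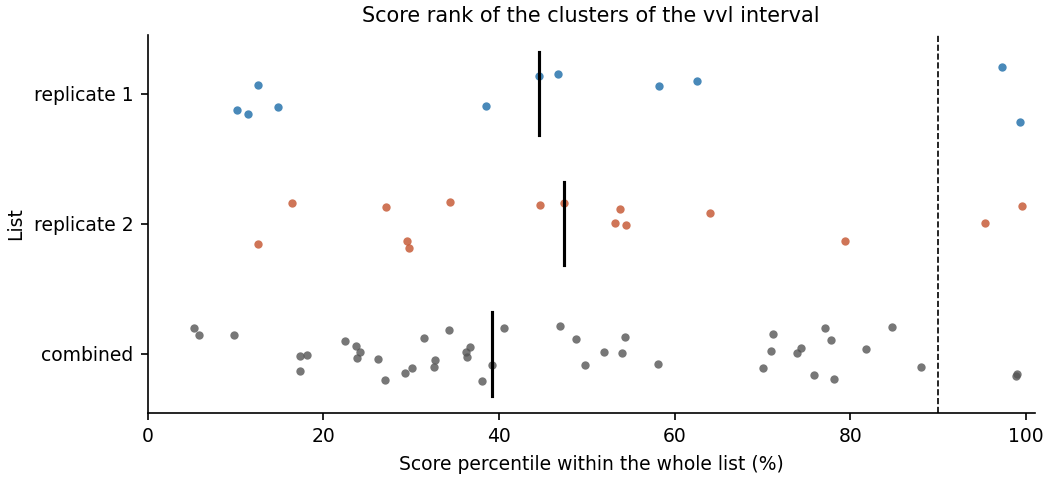
Score rank of each member. Each point is 1 cluster of the vvl interval, placed on the x axis at its percentile (%) within its whole list, with vertical scatter only to separate points; the solid bars are medians (44.5, 47.4 and 39.2) and the dashed line is the 90th percentile. Each list has 2 points right of the line, and the rest spread over the lower range.

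Between the strong sites lay a stretch of 108 kb with many clusters, none of them strong. The combined list had 28 clusters there, which covered 49.5% of the stretch, with scores of 0.29 to 0.49. Replicate 1 had 7 clusters between the sites, with scores of 0.43 to 0.63, and replicate 2 had 7, with scores of 0.41 to 0.58. They covered 12.6% and 10.8% of the stretch. The highest of them reached percentile 62.6 in replicate 1 and 64.0 in replicate 2, so the replicate lists had nothing above the middle range between the sites. A spacing of this size is common between successive strong clusters: 52.9% of the 242 such gaps on the arms and chromosome 4 were longer in replicate 1, 48.3% of 230 in replicate 2 and 33.2% of 743 in the combined list.

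The flanks of the pair were unequal between the replicates. Before the first site, replicate 1 had 1 cluster, replicate 2 had 0 and the combined list had 2. After the second site, replicate 1 had 1 cluster, replicate 2 had 5 and the combined list had 13. The combined clusters came to an end at 3L:6769838-6772993 (score 0.38) on one side and 3L:6956979-6958280 (score 0.27) on the other. Outside the interval, the nearest combined cluster before it had a score of 0.34 and lay 27.3 kb from the first of these clusters. The nearest after it had a score of 0.44 and lay 13.9 kb from the last.

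The share of the interval inside clusters was 13.3% in replicate 1 and 14.6% in replicate 2, a mean of 14.0% ± 0.97 (SD, n = 2), and 44.2% in the combined list. Both neighbouring windows of the same length were emptier in each list. The window before held 1.40% ± 0.70 (SD, n = 2) in the replicates and 9.44% in the combined list, and the window after held 4.69% ± 0.21 (SD, n = 2) and 13.5%. The whole arm 3L stood at 3.85% ± 0.54 (SD, n = 2) and 11.8%. The difference between the interval and these windows exceeded the spread between replicates, but the interval was chosen for its clusters, so the difference is no finding.

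Without the strong sites, clusters still covered 8.05% of the interval in replicate 1, 9.43% in replicate 2 and, for the combined list, 37.8%. Each of these values was above the level of the whole arm in the same list, which was 4.23%, 3.47% and 11.8%. The arm values keep their own strong clusters, so the measures are unlike. The interval was chosen for its clusters, so this difference is no finding either.

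In bins of 10 kb, both replicate lists had their highest coverage in the bins where the strong sites began. Replicate 1 reached 65.9% in the bin of the second site and 57.4% in the bin of the first, and replicate 2 reached 57.4% and 61.0%. The combined list covered 91.6% and 72.3% of these bins. Other clusters added to these values, except in the bin of the first site in replicate 2. The second site alone took up 45.6% of its bin in replicate 1 and 37.2% in replicate 2, and the first 52.3% and 61.0%. A bin without a strong site, 3L:6870000-6879999, reached 51.2% in replicate 1 and 10.9% in replicate 2. Of the 21 bins, the combined list had clusters in 20, replicate 1 in 10 and replicate 2 in 12. Both replicates had clusters in 8 bins and neither in 7, while 2 bins had clusters in replicate 1 only and 4 in replicate 2 only. The longest stretch without a cluster between members was 36.1 kb in replicate 1 (after 3L:6824324-6825656) and 23.5 kb in replicate 2 (after 3L:6818570-6819871). Combined clusters lay wholly inside these stretches, 12 in the first and 8 in the second.

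**Figure D3:**
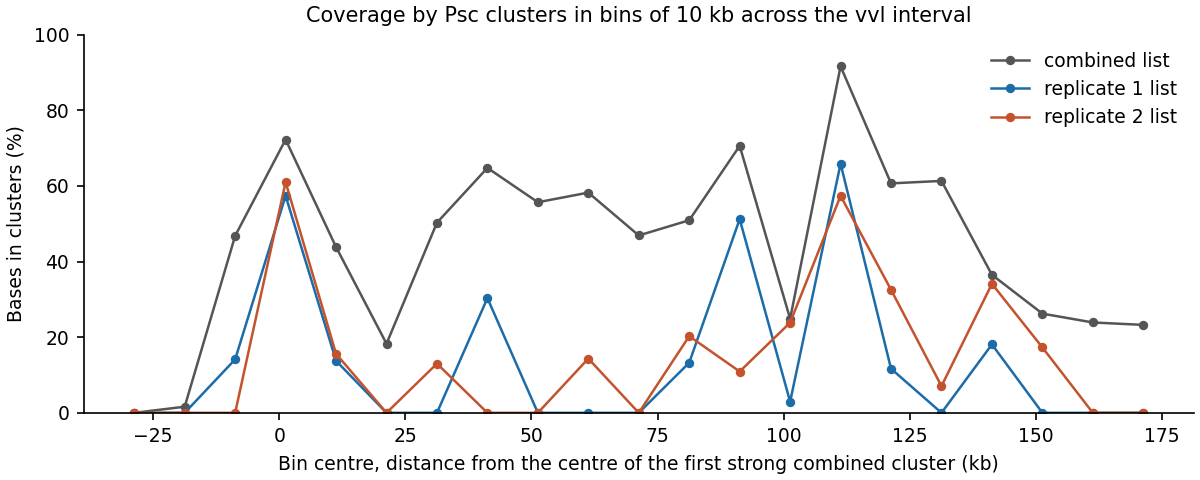
Coverage across the vvl interval. Points give the share of bases (%) inside clusters in each of 21 bins of 10 kb, by list, at the bin centre's distance in kb from the centre of the first strong combined cluster. The replicate lines peak at 57.4% to 65.9% in the bins where the strong sites began and drop to 0 in several bins between them, while the combined line stays above 0 in 20 bins.

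The replicates were next compared cluster by cluster, counting an overlap of at least 1 bp. Of the replicate 1 clusters, 6 of 11 (54.5%, exact Clopper-Pearson 95% interval 23.4 to 83.3) overlapped a replicate 2 cluster, against 51.4% of that whole list. Of the replicate 2 clusters, 7 of 15 (46.7%, 21.3 to 73.4) overlapped a replicate 1 cluster, against 58.7%. These intervals cover counting error only and treat clusters as independent, which neighbours at 1 locus need not be. They include the shares of the whole lists, which is a description and no test. In bases, 16214 bp were covered by both replicates, 38.2% of those covered by either, and over the whole arm 3L the share was 40.1%. Most of the shared bases lay at the strong sites, 4914 bp at the first and 4845 bp at the second. The share without these sites was not obtained.

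The overlapping clusters made up 6 regions, the 2 strong sites and 4 weaker ones. Region 3L:6861522-6864750 had a score of 0.53 in replicate 1 and 0.51 in replicate 2, at percentiles 38.5 and 44.7. Region 3L:6877468-6881127 had 0.60 and 0.58, at percentiles 58.2 and 64.0. It was the strongest of the 4 in both replicates. Region 3L:6891568-6893738, just before the second strong site, had 0.55 and 0.46, at percentiles 44.5 and 29.5. Region 3L:6927106-6929199, beyond that site, had 0.43 and 0.48, at percentiles 11.4 and 34.4. Of the 4, 3 lay between the strong sites, all in the part of the stretch nearer to the second.

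By definition 10.0% of the clusters of each replicate list are strong, and the share among all clusters in 1 replicate list only was not obtained. As a description, no cluster of the interval present in 1 replicate list only was strong. The 10.0% is a share of all clusters of a list, an unlike base, so nothing about vvl is read from this count. The 5 of replicate 1 had scores of 0.43 to 0.63 and percentiles of 10.1 to 62.6. The highest was 3L:6821571-6823271, with a score of 0.63, and the lowest was 3L:6873962-6876900, with 0.43. The other 3 were 3L:6771540-6772953, 3L:6789491-6791375 and 3L:6824324-6825656. The 8 of replicate 2 had scores of 0.41 to 0.54 and percentiles of 12.6 to 54.5. The highest was 3L:6935489-6937217, with 0.54, beyond the second strong site, and the lowest was 3L:6843354-6844788, with 0.41. The remaining 6 began at 6793574, 6818570, 6888601, 6905340, 6909336 and 6921969.

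The distance from these clusters to the other replicate was also measured. The nearest cluster was 1.70 kb to 7.59 kb away for the 5 of replicate 1. For the 8 of replicate 2 it was 1.54 kb to 16.9 kb away, and within 10 kb for 7 of them. Over whole lists, a cluster of the other replicate lay within 10 kb of 46.0% of the replicate 1 only clusters and of 45.2% of the replicate 2 only clusters. The interval was chosen where clusters are dense, so nothing is read from this difference. A cluster missing from a list was below the authors' threshold or not testable there, and its signal is unknown.

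The combined list overlapped every replicate cluster of the interval, 11 of 11 and 15 of 15, against 96.3% and 97.4% of the whole replicate lists. Of its own 45 clusters, 6 were in both replicate lists (13.3%, 5.05 to 26.8, against 13.5% of all combined clusters). A further 5 were in replicate 1 only (11.1%, against 13.0%), 8 in replicate 2 only (17.8%, against 10.1%) and 26 in neither (57.8%, 42.2 to 72.3, against 63.5%). Of the 43 combined clusters that were not strong, 4 were in both replicate lists (9.30%, against 7.74% of all such clusters) and 17 in at least 1 (39.5%, against 32.8%). The combined list was made from the same samples, so these counts are not independent support for any cluster.

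The 6 combined clusters in both replicate lists were 3444.5 bp wide at the median, with a median score of 0.48 (0.43 to 1.56). The 5 in replicate 1 only had 3156 bp and 0.37 (0.35 to 0.38), and the 8 in replicate 2 only had 1989.5 bp and 0.34 (0.31 to 0.42). The 26 in neither had 1285.5 bp and 0.35 (0.26 to 0.45). Median width thus went down from the first class to the last, whereas the median scores of the last 3 classes lay close together. Replicate lists hold no cluster under 1301 bp, and 13 of the 45 combined members (28.9%, against 39.6% of the whole list) were narrower than that. All 13 were among the 26 in neither list, and no other class had a cluster under 1414 bp. A wider cluster also meets an overlap of 1 bp more easily. The order of the widths is thus partly set by how the classes were made, and it was not compared with the whole list. The widest combined cluster after the strong sites was 3L:6872935-6876904, at 3970 bp, with a score of 0.35.

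The choice of a long group of combined clusters fixes short gaps within it, so the spacing is given as a description. The median gap between neighbouring combined clusters was 1501 bp, against 5319 bp over the arms and chromosome 4. Gaps under 1000 bp were 17 of 44 (38.6%, against 19.1%) in the combined list, 1 of 10 (against 14.1%) in replicate 1 and 1 of 14 (against 12.5%) in replicate 2. In the replicate lists the median gaps were 9839 bp (10 gaps) and 6646.5 bp (14 gaps), against 11757 bp and 12314 bp over the arms. Joined within 10 kb, all 45 combined clusters formed 1 domain, 3L:6769838-6958280. Joined within 5 kb, they formed 5 blocks. The first, 3L:6769838-6801827, held 6 clusters with the first strong site, and the third, 3L:6888640-6929199, held 12 with the second. The block between, 3L:6811386-6881127, had 22 clusters and no strong one. The last 2 blocks held 3 and 2 clusters.

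The vvl domain was finally set beside the other long domains of the combined list. Among 3075 domains it was the eighth by length, at 188 kb, the longest of the 612 on 3L, and the third by number of clusters. This place holds for joining within 10 kb. Within 5 kb its longest block was 69.7 kb and took place 25, and within 25 kb the domain grew to 236 kb and took place 49. Among the 10 longest at 10 kb it had the lowest coverage in each list: 14.8% in replicate 1, 16.3% in replicate 2 and, for the combined list, 49.3%. The next lowest, a domain of 226 kb on 3R, had 28.2%, 19.0% and 58.2%. The replicate means were 15.6% ± 1.1 for vvl and 23.6% ± 6.5 for that domain (SD, n = 2 for each). The other 8 had replicate means of 29.8% to 70.1%. Among these, a domain of 334 kb on 3R had 27 combined clusters, which covered 93.4% of it. The number of clusters in a domain is thus no measure of its coverage.

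The vvl domain was also the lowest of the 10 in strong combined clusters, with 2 of 45 (4.44%), in the part of its clusters that both replicates also held (13.3%) and in median combined score (0.356). The others had 3 to 20 strong clusters, 6.38% to 51.9% of their number, 21.3% to 63.0% of clusters in both replicate lists and medians of 0.364 to 0.539. The highest percentile at vvl was 99.3 in replicate 1, at the first site, and 99.6 in replicate 2, at the left piece of the second. In the other 9 domains it was 94.8 to 99.6 and 94.4 to 99.6. The domains were picked by length from the combined list, so these orders were not tested. Among the 36 domains with at least 20 combined clusters, the number of strong ones ranged up to 20 with a median of 4.5. At vvl it was 2, as in 4 other domains, and 3 domains had fewer.

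**Figure D4:**
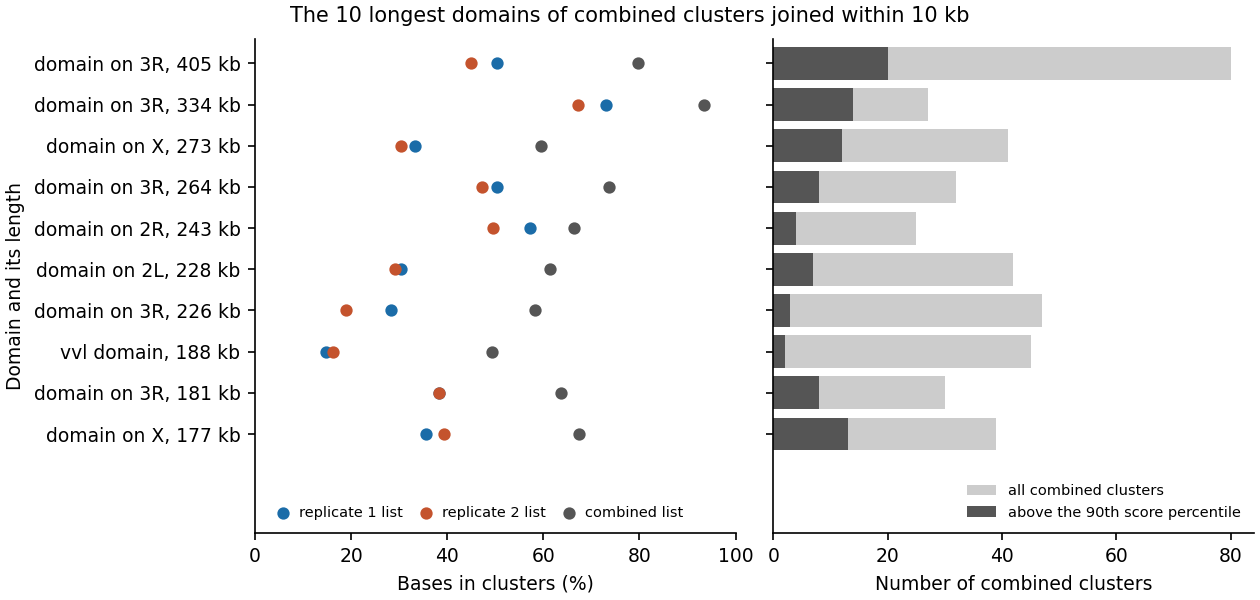
The 10 longest domains of combined clusters, from the longest at the top. Left, the share of each domain's bases (%) inside clusters of each list; right, the number of combined clusters (light bars) and of those above the 90th percentile by score (dark bars). The vvl domain has the lowest point in each list and 2 strong clusters among 45.

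The position of the vvl transcription unit relative to these clusters was not determined, because genes were known here only in release 6 and clusters only in release 5. By order in that table, vvl (CG10037) is preceded on 3L by the long non-coding RNA gene lncRNA:CR45759 and the protein-coding gene Rsph3. It is followed by lncRNA:CR45115, lncRNA:CR45416 and the protein-coding gene Prat2, which encodes an enzyme of purine synthesis. No cluster was assigned to any of these genes.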

How the data were processed

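The deposited data are 3 lists of enriched regions in release 5 coordinates, per the file headers, 1-based, with 1 score per cluster made by the authors. Reads were processed with Bowtie 0.12.7, per the submitters' processing notes. The cluster caller, its threshold, the way the replicates were combined and the score's unit are not given in these sources. For the top 60 scores in the combined list, 1507 of 1770 differences were the log of a simple fraction (denominator at most 40, tolerance 1e-09) on base 2, against 141 on base 10 and 94 on base e. The replicate lists gave 40 and 22 of 1770 on base 2, so their scale is not settled, and scores were compared only in order within a list.

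Clusters overlapping 3L:6750000-6960000 were taken from each list. Overlap (at least 1 bp), coverage, domains (gaps of at most 10 kb) and Clopper-Pearson intervals were obtained in Python 3.11.15 (scipy 1.17.1, pandas 2.3.3, numpy 2.4.6), tested on simulated data and checked against bedtools 2.31.1. Figures were drawn with matplotlib 3.10.9. The Clopper-Pearson intervals treat clusters as independent, which neighbours at 1 locus need not be. No test was run, since the interval was chosen on these lists. The interval, its comparisons and alternatives were chosen with earlier results of these data known. Named regions are those in both replicate lists or in 1 only, the 3 highest and 3 widest combined clusters and the outermost ones. The 5 kb blocks, the longest empty stretches and the split of strong and weak clusters were chosen after the values were seen. Read depth is unknown.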

Additional observations from a re-analysis of the deposited data

How the results depend on the processing

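Of 26 alternatives to 7 results, 2 gave no value and 17 moved a value by less than the spread between replicates, its counting interval or 1.5 times. Some of these 17 were fixed in advance and say nothing on stability. With n = 2, leaving out 1 replicate always shifts a mean by less than the SD. Joining within 25 kb cannot split clusters already joined within 10 kb. The alternatives that moved a value further were these. With clusters at or above their list's median score, replicate coverage of the interval was 7.80% in place of 14.0%. In that setting the share of combined clusters in both replicate lists was 33.3% of 18 in place of 13.3% of 45. Fewer clusters enter by construction. The share over the whole combined list in that setting was not obtained, so the rise is not read as a trait of vvl. Within the bounds of the combined clusters, coverage was 15.6%, over a shorter window. A gap of 5 kb gave 5 blocks in place of 1. The median percentile of 46.0 became 57.7 for clusters in both replicate lists, 54.1 among clusters of 3L, and 41.6 without the strong clusters. Leaving out each replicate gave coverage of 13.3% to 14.6% and a median percentile of 44.5 to 47.4, and vvl stayed the lowest of the 10 longest domains (place 1 both times). That comparison and the removal of strong clusters were added after seeing the data. With domain gaps of 5 kb or 25 kb the vvl domain took place 25 or 49 by length and was not among the 10 longest, so its coverage could not be placed among them. No paired analysis was possible because only the ChIP lists, not the inputs, hold values used here. Unknown read depth limits every score.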
